A study of Mus musculus with 6 samples.

Results

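The genes described here are 10 mouse chemokine ligands that T cells can make, picked by symbol (Ccl1, Ccl3, Ccl4, Ccl5, Ccl9, Cxcl9, Cxcl10, Cxcl11, Cxcl16 and Xcl1), out of 55401 genes in the count table. Their mRNA was measured by poly(A) RNA sequencing in 6 samples of cultured mouse T cells. In 3 samples (control) the T cells received the supernatant of untreated macrophages, and in 3 samples (NFL) that of macrophages activated with NFL (neurofilament light chain), a cytoskeletal protein of axons. Per the design text, all T cells came from spleen by positive selection for CD8a and were kept in 50% macrophage supernatant in a medium with 2% serum. The macrophages of both groups were differentiated from CD11b+ spleen cells for 7 days with M-CSF at 50 ng/mL. Those of the NFL group then received 5 µg/mL NFL for 24 h, prepared as a freeze-thawed lysate of sciatic nerve, so by that description the added material was a nerve lysate. Strain, sex and age of the mice are not in the labels, and nothing says that the replicates came from separate animals, so the p-values below measure the spread between these 3 and 3 samples, which may be technical.

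Chemokines are small secreted proteins that bind G protein-coupled receptors and draw cells along a concentration gradient. Cxcl9, Cxcl10 and Cxcl11 are interferon-inducible ligands of Cxcr3, a receptor of activated T cells and natural killer cells, while Ccl3, Ccl4 and Ccl5 are inflammatory CC chemokines that draw T cells and myeloid cells. Activated CD8+ T cells are known for making Ccl3, Ccl4, Ccl5 and Xcl1, the last of which acts on Xcr1 of cross-presenting dendritic cells.

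The libraries held 15843045 to 24639756 counts, and 3 counts, taken as the floor of detection, correspond to 0.122 to 0.188 CPM (the count scaled to a common library size). Floors and intervals of single libraries cover counting error only. Of the 12 T-cell markers looked up, 12 passed the filter on low counts, at very different levels. The median was 1640 CPM for Thy1, the highest, 357 for Trbc1, 57 for Trbc2, 53.6 for Cd3e and 44.8 for Cd247. It was 7.63 CPM for Cd3g, 4.43 for Lck, 4.15 for Cd3d and 1.59 for Trac. The list had a median log2 fold change of -0.15 between the groups. Of the 12, 1 was lower past the threshold used below (3.53% over all tested genes). This was Cd3e, a chain of the T-cell receptor complex, with 62.1, 64.6 and 56.4 CPM in the control and 50.6, 49.1 and 50.8 CPM in the NFL libraries (log2 fold change -0.28, edgeR adjusted p = 0.00057). The groups did not overlap for Cd3e, and its part in the ligand values was not tested. Against the label of CD8a-selected spleen cells, Cd8a had a median of 3.92 CPM, Cd8b1 1.28 CPM and Cd4 25.7 CPM. In every library 99.87 to 100% of the counts of T-cell receptor beta variable (Trbv) genes fell on Trbv1, whereas a spleen population normally uses many segments. The cells are therefore called T cells below. Among the markers of few counts, Cd3d was lowest in control replicate 2, at 2.32 CPM against 3.6 to 4.82 CPM in the other libraries. Trac had 2.48 CPM in control replicate 1 and 2.5 CPM in NFL replicate 2, against 0.994 to 1.68 CPM elsewhere.

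Of the 10 ligands, 2 were higher with NFL supernatant, Cxcl10 and Ccl5, and both roughly doubled. Another 3 ligands, Xcl1, Ccl4 and Cxcl16, could be tested but were not past the threshold, and 5 ligands had too few counts to be tested. No ligand was called lower. Ccl3 had 0 counts in all 6 libraries. The test was edgeR's quasi-likelihood F test over the 14082 genes that passed the filter, adjusted by Benjamini-Hochberg with 0.05 as the threshold. It called 7.00% of those genes, 3.47% as higher and 3.53% as lower. That is 489 genes up and 497 down, and scaling by library size alone gave 372 and 600, with Cxcl10 and Ccl5 again past the threshold. The median log2 fold change over all tested genes was 0. The value over the 5 ligands that passed the filter, 0.77, is that of Xcl1 alone and is given as a description. Xcl1 was not past the threshold and passed the filter only through its NFL libraries.

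**Figure D1:**
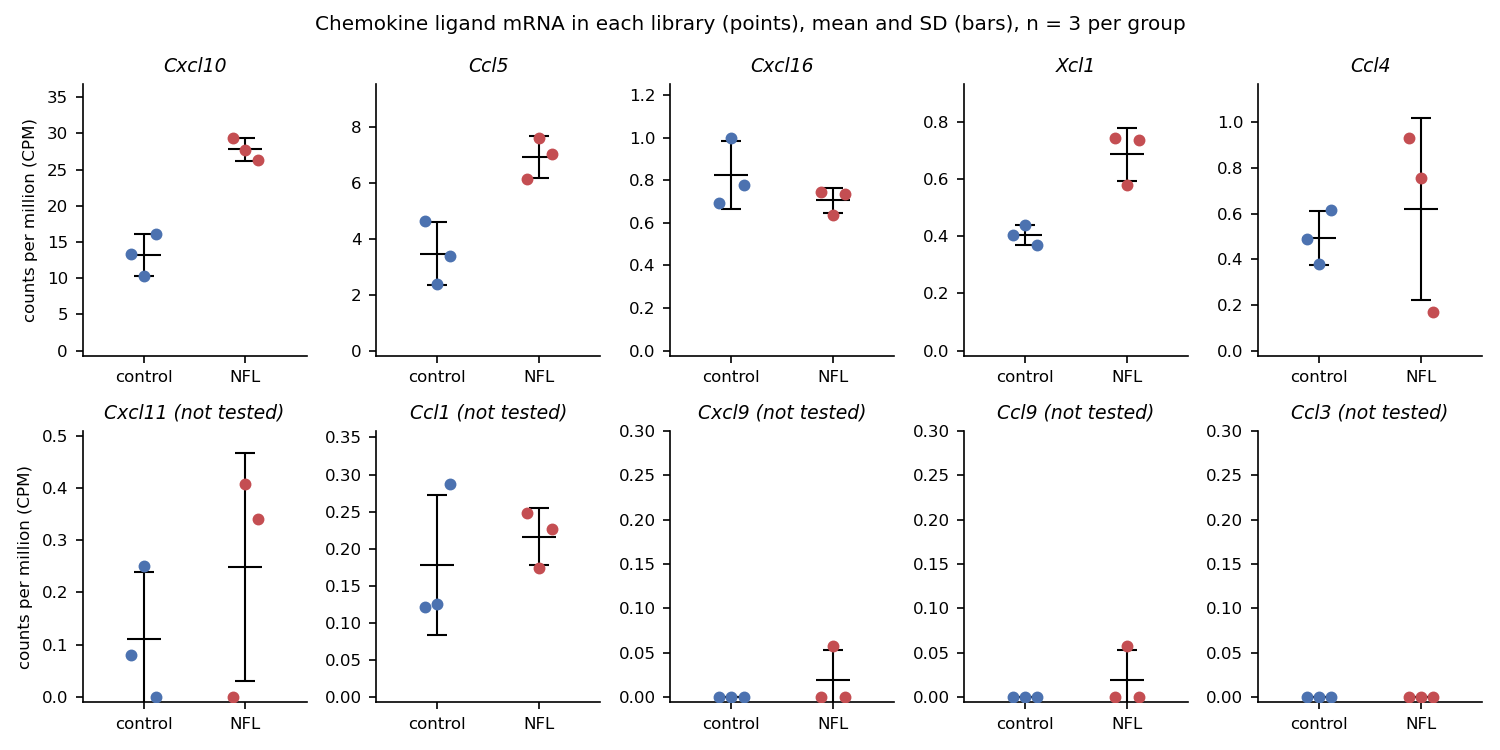
CPM of each of the 10 ligands (y axis, linear, a different scale in each panel) in the 3 control and 3 NFL libraries (x axis), where points are libraries, long dashes are means and bars span 1 SD either side, cut off at the axis. Cxcl10 lay between 10.3 and 16.1 CPM in the control libraries and between 26.3 and 29.4 CPM in the NFL libraries, Ccl5 separated likewise at lower CPM, and Cxcl9, Ccl9 and Ccl3 were at or near 0.

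Among the ligands of Cxcr3, Cxcl10 (ENSMUSG00000034855.13) was measured well in every library. It lies on the minus strand of chromosome 5, from 92346638 to 92348889 in GRCm38. The control libraries had 329, 164 and 393 counts, and the NFL libraries had 473, 476 and 465 counts. Scaled to library size these were 13.4, 10.3 and 16.1 CPM with control supernatant and 29.4, 27.7 and 26.3 CPM with NFL supernatant. The groups did not overlap, and the control libraries were spread more widely than the NFL libraries. The mean was 13.3 ± 2.9 CPM in the control and 27.8 ± 1.53 CPM in the NFL group (SD, n = 3 each). The log2 fold change was 1.04 (standard error 0.098, 95% interval 0.85 to 1.24, edgeR adjusted p = 1.2e-11), which is 2.06-fold with an interval of 1.8 to 2.36. The exact two-sided permutation test of its CPM gave p = 0.1, the smallest value possible with 3 samples a group. Among all tested genes, 38 had a larger rise. In bulk samples of this kind, a change in the number of expressing cells and a change in the RNA of each cell cannot be told apart.

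Cxcl10 lies inside the span of Art3, which is on the other strand and shares 133 bases of exon with it, 5.906% of the exon bases of Cxcl10. Whether counting used the strand is not given in the sources used here, so reads from the shared bases could be counted for either gene. Art3 had 0 to 12 counts in a library, with a mean of 0.333 CPM in the control and 0.117 CPM in the NFL libraries, far below the counts of Cxcl10.

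The other 2 ligands of Cxcr3 lie beside Cxcl10 on chromosome 5 and had very few counts. Cxcl9 (ENSMUSG00000029417.9, 92321347 to 92328079, minus strand) had 1 count in NFL replicate 2 and 0 counts in the other 5 libraries. Cxcl11 (ENSMUSG00000060183.6, 92359544 to 92365485, minus strand) had 2, 4 and 0 counts in the control libraries and 0, 7 and 6 counts in the NFL libraries. Cxcl11 counts thus overlapped between groups, and each group contained a library at 0. RefSeq lists mouse Cxcl11 as a transcribed pseudogene, and 41.7% of its exon bases lie opposite the processed pseudogene Gm2673, which had 0 counts in every library. Neither ligand was tested, and at these depths a difference in Cxcl9 or Cxcl11 was not detectable.

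The 250 bases before the start sites of Cxcl10 and Cxcl9, neighbours that share a receptor and a strand, are shown here. This pair was chosen after its counts were seen, and a link between sequence and counts was not tested. Both stretches come from RefSeq (GRCm38.p6, minus strand), Cxcl10 from chr5:92348890-92349139 and Cxcl9 from chr5:92328080-92328329. Capitals mark matches, on either strand, to the letters of 4 motifs, and none of the matches in Cxcl10 overlap. The motifs were NF-kB (GGG, 3 bases of any kind, TTCC), the interferon-stimulated response element or ISRE (TTTC, 2 bases of any kind, TTTC), the gamma-activated site or GAS (TTC, 3 bases of any kind, GAA) and AP-1 (TGA, 1 base of any kind, TCA).
Cxcl10: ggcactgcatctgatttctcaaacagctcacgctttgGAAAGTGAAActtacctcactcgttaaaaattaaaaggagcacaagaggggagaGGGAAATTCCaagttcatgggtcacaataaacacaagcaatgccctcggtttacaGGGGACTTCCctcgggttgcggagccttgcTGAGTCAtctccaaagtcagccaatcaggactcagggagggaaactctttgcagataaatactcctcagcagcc
Cxcl9: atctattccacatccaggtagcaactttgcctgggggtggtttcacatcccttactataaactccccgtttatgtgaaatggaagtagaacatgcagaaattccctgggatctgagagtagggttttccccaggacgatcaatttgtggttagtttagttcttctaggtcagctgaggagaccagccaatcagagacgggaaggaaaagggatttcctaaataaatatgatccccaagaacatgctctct
In Cxcl10 the capitals are, in order, an ISRE match on the reverse strand at -213 to -204 (GAAAGTGAAA), NF-kB matches at -159 to -150 (GGGAAATTCC) and -104 to -95 (GGGGACTTCC), and an AP-1 match at -74 to -68 (TGAGTCA), counted from the start site. The stretch printed for Cxcl9 holds no match, and the window searched, which runs on to 50 bases after the start, holds 1 AP-1 match at 32 to 38.

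Promoter windows were found for 6 of the 10 ligands, and those of Ccl4, Ccl5, Cxcl11 and Cxcl16 were not used here. Over all 32851 windows of the same length, 5.56% held the NF-kB letters, 3.44% the ISRE letters, 8.3% the GAS letters and 7.81% the AP-1 letters. Of the 6 ligands, NF-kB letters were in 3 (Cxcl10, Ccl1 and Ccl9), ISRE letters in 1 (Cxcl10), AP-1 letters in 3 (Cxcl10, Cxcl9 and Ccl9) and GAS letters in 0. In Ccl1 the pair of NF-kB matches, at -196 to -187 and -195 to -186, were read on opposite strands and overlap in all but 1 base. Xcl1 and Ccl3 held no match to the letters searched. Over the 6 libraries Ccl1 and Ccl9, with NF-kB matches, had 23 and 1 counts, and Xcl1 and Ccl3, with no match, had 61 and 0. A match is a description of the sequence, and no binding was measured in these cells.

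**Figure D2:**
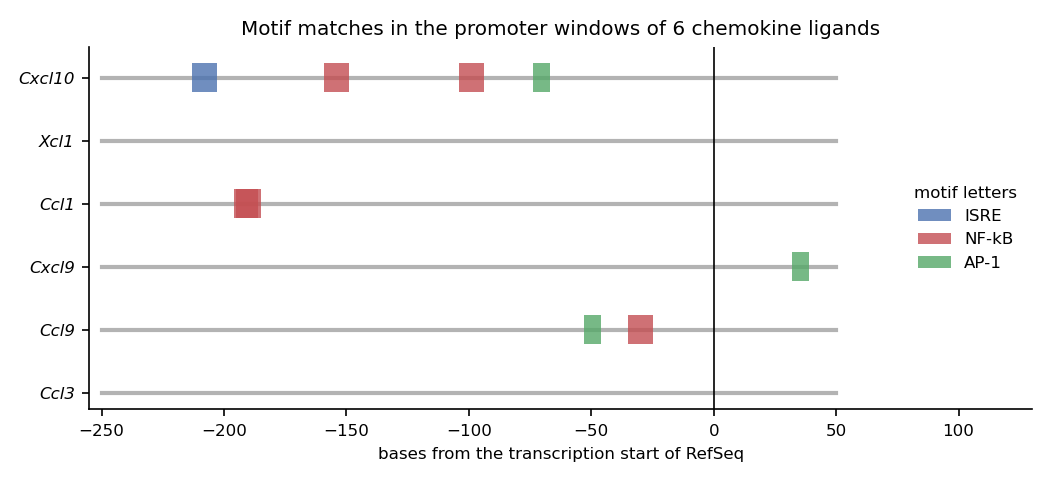
Positions of motif matches (coloured blocks) in the promoter windows of 6 ligands (rows), with the distance from the RefSeq start site in bases on the x axis and the start at 0. Cxcl10 holds 4 matches, all before the start, Cxcl9 holds 1 after it, and Xcl1 and Ccl3 hold none.

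Among the inflammatory CC chemokines Ccl3, Ccl4 and Ccl5, Ccl5 alone was past the threshold. Ccl5 (ENSMUSG00000035042.2) is also called RANTES and is kept as a stored message in memory CD8+ T cells. It lies on the minus strand of chromosome 11, from 83525778 to 83530518 in GRCm38. The control libraries had 114, 38 and 83 counts (4.63, 2.38 and 3.4 CPM) and the NFL libraries had 99, 131 and 124 counts (6.15, 7.62 and 7.02 CPM). Every NFL library was above every control library, and control replicate 2, the shallowest library, was the lowest of the 6. The mean was 3.47 ± 1.13 CPM in the control and 6.93 ± 0.737 CPM in the NFL group (SD, n = 3 each). The log2 fold change was 0.96 (standard error 0.18, 95% interval 0.6 to 1.32, edgeR adjusted p = 0.00019). That is 1.95-fold, with an interval of 1.51 to 2.5, and 55 tested genes had a larger rise. The exact two-sided permutation test of its CPM gave p = 0.1, again the smallest value possible. Without control replicate 2 the log2 fold change of Ccl5 was 0.79 (edgeR adjusted p = 0.00044), and without control replicate 1 it was 1.23 (edgeR adjusted p = 3.6e-05). The annotation lists no gene that overlaps Ccl5.

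Ccl4 (ENSMUSG00000018930.3, MIP-1 beta) lies on the plus strand in the same cluster, from 83662584 to 83664683. It had 12, 6 and 15 counts in the control libraries and 15, 13 and 3 counts in the NFL libraries. In CPM these were 0.488, 0.377 and 0.614 against 0.932, 0.756 and 0.17. NFL replicate 3 was thus the lowest of all 6 libraries, and the other NFL libraries were the highest. The log2 fold change was 0.28 (standard error 0.5, 95% interval -0.73 to 1.29, edgeR adjusted p = 0.84), so both a fall to 0.602-fold and a rise to 2.45-fold lie within the interval. Without NFL replicate 1 the estimate was -0.12 and without NFL replicate 3 it was 0.74, neither past the threshold.

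Ccl3 (ENSMUSG00000000982.5, MIP-1 alpha; chromosome 11, 83647844 to 83649355, minus strand) had 0 counts in all 6 libraries, which at 3 counts allows at most 0.122 to 0.188 CPM in a library. Ccl4, its neighbour and usual partner, was detected in each library at 3 to 15 counts. Ccl9 (ENSMUSG00000019122.8; 83572919 to 83578636, minus strand), a Ccr1 ligand made mainly by myeloid cells, lies between Ccl5 and Ccl3 and had 1 count in NFL replicate 2 and 0 elsewhere. The Ccl cluster of chromosome 11 therefore held Ccl5 with 589 counts over the 6 libraries, Ccl4 with 64, Ccl9 with 1 and Ccl3 with 0.

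Xcl1 (ENSMUSG00000026573.7, lymphotactin) lies on chromosome 1, from 164931644 to 164935527 on the minus strand. It had 10, 7 and 9 counts in the control libraries (0.406, 0.439 and 0.368 CPM) and 12, 10 and 13 counts in the NFL libraries (0.745, 0.581 and 0.736 CPM). The NFL libraries were all above the control libraries, with means of 0.688 ± 0.0922 CPM against 0.405 ± 0.0355 CPM (SD, n = 3 each). With so few counts the difference was not past the threshold (log2 fold change 0.77, standard error 0.48, 95% interval -0.2 to 1.73, edgeR adjusted p = 0.42). Of its exon bases, 18.74% lie opposite Gm20743, which had 0 to 6 counts in a library against 7 to 13 for Xcl1. Xcl1 was 1 of 3 tested ligands whose groups did not overlap, beside Cxcl10 and Ccl5, and 22.7% of all tested genes showed such a separation. Xcl1 passed the filter on low counts only through its NFL libraries. Its separation therefore follows in part from the filter and is not evidence of a rise.

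Cxcl16 (ENSMUSG00000018920.11) encodes a membrane-bound ligand of Cxcr6 that is shed by Adam10. It lies on chromosome 11, from 70453983 to 70459984 on the minus strand. It had 17, 16 and 19 counts in the control libraries (0.691, 1 and 0.778 CPM) and 12, 11 and 13 counts in the NFL libraries (0.745, 0.639 and 0.736 CPM). The groups overlapped, and the log2 fold change was -0.2 (standard error 0.42, 95% interval -1.05 to 0.66, edgeR adjusted p = 0.87). Of its exon bases, 18.27% lie opposite Zmynd15, which had 4 to 12 counts in a library against 11 to 19 for Cxcl16.

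Ccl1 (ENSMUSG00000020702.13), the ligand of Ccr8, lies on chromosome 11 from 82176657 to 82305690 on the minus strand. It had 3, 2 and 7 counts in the control libraries and 4, 3 and 4 counts in the NFL libraries, 12 against 11 counts in all. These lie at or little above the floor of 3 counts, and Ccl1 was not tested.

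**Figure D3:**
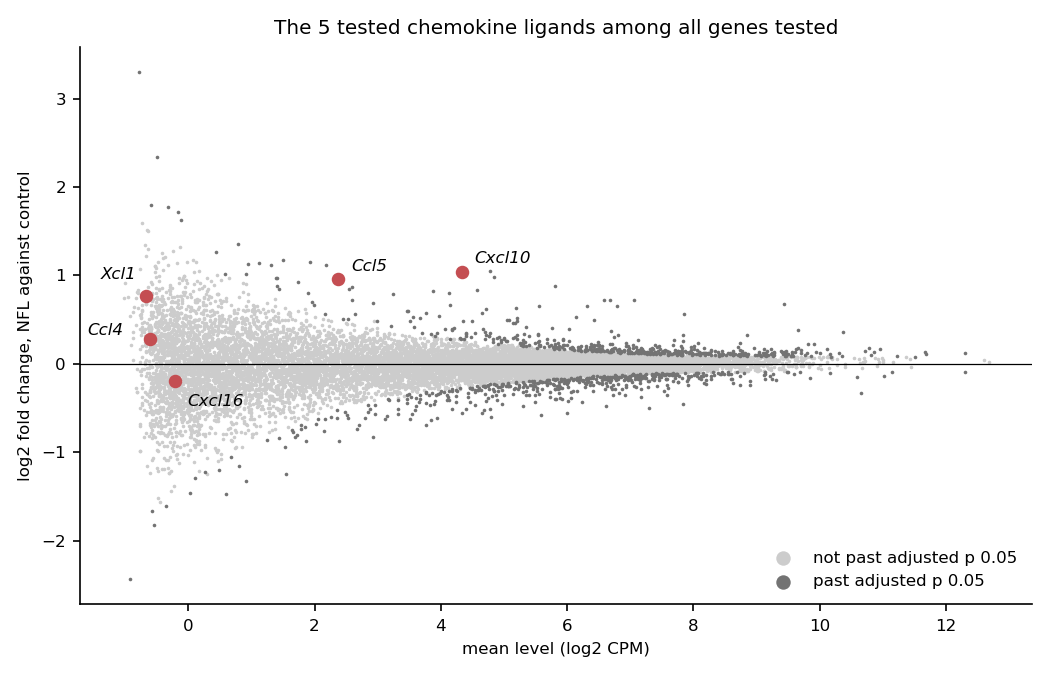
Log2 fold change of NFL against control (y axis) by mean level in log2 CPM (x axis) for the 14082 tested genes (grey, darker where the edgeR adjusted p was under 0.05) and the 5 tested ligands (red). Cxcl10 at 1.04 and Ccl5 at 0.96 lie at the upper edge of the genes of their CPM, while Xcl1, Ccl4 and Cxcl16 lie at the low end, where the scatter of the other genes is wide.

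Compared per length, as CPM divided by kb of annotated exon, Cxcl10 had the highest mean level of the 10 ligands in both groups. The 28 other chemokine ligands were not compared per length. Its level was 5.88 ± 1.29 CPM per kb with control supernatant and 12.3 ± 0.678 CPM per kb with NFL supernatant (SD, n = 3 each). Ccl5 followed with 3.62 ± 1.17 and 7.22 ± 0.768 CPM per kb. In the control group these neighbours in the order lay within the sum of their SDs. Xcl1 (0.774 ± 0.0678 and 1.31 ± 0.176 CPM per kb) and Ccl4 (0.747 ± 0.18 and 0.938 ± 0.604 CPM per kb) came next and differed from each other by less than the SD of Ccl4 in both groups. Cxcl16 had 0.273 ± 0.0535 and 0.234 ± 0.0194 CPM per kb, Ccl1 had 0.0751 ± 0.0397 and 0.0914 ± 0.0161, and Cxcl11 had 0.0292 ± 0.0338 and 0.0656 ± 0.0575. With the longest transcript in place of all exons, the level of Ccl5 over the 6 libraries was 7.79 CPM per kb in place of 5.42, and Cxcl10 remained above it at 9.2 in place of 9.11.

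The summed level of the 10 ligands was 12.6, 8.92 and 12.7 CPM per kb in the control libraries and 22.6, 22.9 and 21.1 CPM per kb in the NFL libraries. The means were 11.4 ± 2.15 and 22.2 ± 0.973 CPM per kb (SD, n = 3 each), and no NFL library was as low as any control library. This sum is a description, since Cxcl10 and Ccl5 made up 79.1 to 85.6% of it in the control and 85.9 to 90.1% in the NFL libraries. The share of Cxcl10 was 47.2 to 56.3% in the control and 53.6 to 57.6% in the NFL libraries, which overlap, and so did that of Ccl5 (27.9 to 38.4% and 28.3 to 34.7%). The count ratio of Cxcl10 to Ccl5 within a library, which does not depend on scaling, was 2.89, 4.32 and 4.73 with control and 4.78, 3.63 and 3.75 with NFL supernatant. Its mean log2 value was 1.95 (SD 0.38) and 2 (SD 0.22), a difference of 0.05 that was smaller than the spread (exact two-sided permutation p = 0.9, n = 3 each). This pair was chosen after its values were seen, and none of the pairs planned had 10 counts in every library.

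**Figure D4:**
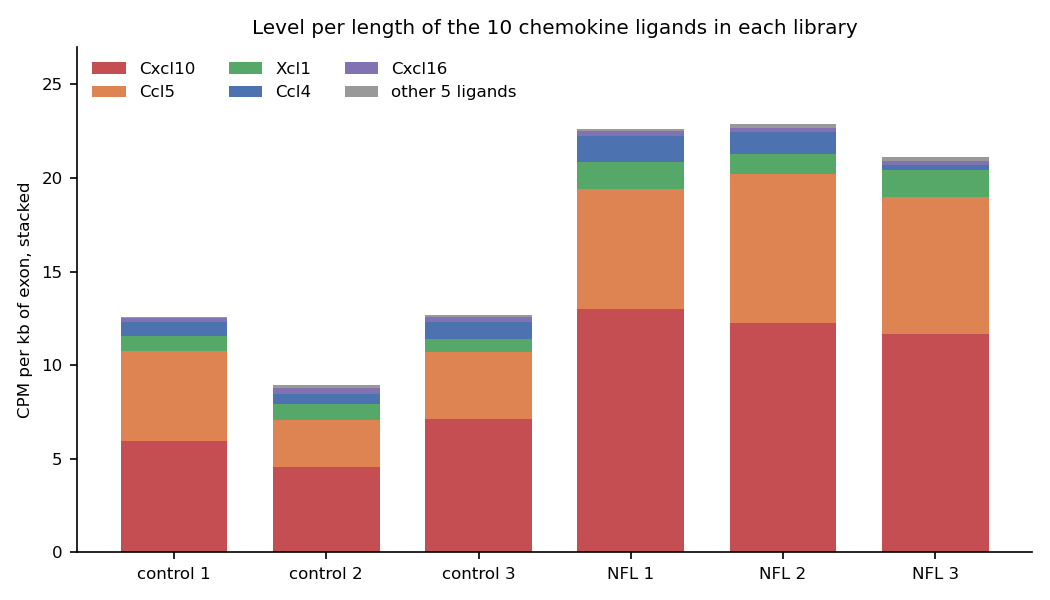
Stacked level of the 10 ligands in CPM per kb of exon (y axis, from 0) in each of the 6 libraries (x axis), with 1 colour for each of 5 ligands and grey for the other 5. The control bars reach 8.92 to 12.7 and the NFL bars 21.1 to 22.9, and Cxcl10 and Ccl5 make up most of each bar.

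Of 28 other mouse chemokine ligands, 15 had 0 counts in all 6 libraries, 3 could be tested and none was past the threshold (median log2 fold change -0.12). Named after its values were seen, Ccl25, a thymus and gut chemokine that binds Ccr9, had 26.5, 28.2 and 25.2 CPM with control and 26.2, 24 and 23.2 CPM with NFL supernatant (log2 fold change -0.12, edgeR adjusted p = 0.45). Ccl27a (-0.15, edgeR adjusted p = 0.68) and Ccl17 (0.02, edgeR adjusted p = 0.99) were the others tested. Whether Cxcl10 and Ccl5 differed from these genes in their change was not tested.

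Receptors of the ligands were scarce in the same cells. Of 10 receptor genes, Cxcr3, the receptor of Cxcl10, was the one with enough counts to test. It had 3.74, 3.33 and 2.62 CPM with control and 1.93, 2.5 and 2.89 CPM with NFL supernatant, and the groups overlapped (log2 fold change -0.4, standard error 0.24, 95% interval -0.87 to 0.08, edgeR adjusted p = 0.38). The Ccl5 receptors Ccr1 and Ccr3 had at most 1 and 0 counts in any library, and Ccr8 had at most 3. Cxcr6 had at most 9 counts and Xcr1 at most 15. Of 4 genes whose products process or store chemokines, 3 were tested and 1 fell, against 3.53% lower over all tested genes. This was Srgn, the granule proteoglycan that binds Ccl5 and other cargo, with a fall from 328 ± 16.7 to 291 ± 6 CPM (SD, n = 3 each, log2 fold change -0.18, edgeR adjusted p = 0.00017). Adam10 and Adam17, the proteases that shed Cxcl16, had log2 fold changes of -0.04 and -0.03 (edgeR adjusted p = 0.52 and 0.84).

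Interferon gamma signalling is known to induce Cxcl9, Cxcl10 and Cxcl11. Of 10 of its genes 9 were tested, and 7 of these were not past the threshold, 1 rose and 1 fell, beside 3.47% higher and 3.53% lower over all tested genes. The median log2 fold change was -0.02. Ifng itself had 10.8, 8.66 and 12.5 CPM with control and 19.9, 18.7 and 18.6 CPM with NFL supernatant, without overlap (log2 fold change 0.82, standard error 0.11, edgeR adjusted p = 1.2e-07). Ifngr1, the ligand-binding chain of its receptor, fell from 118 ± 2.03 to 92.5 ± 1.42 CPM (SD, n = 3 each, log2 fold change -0.35, edgeR adjusted p = 8.4e-09), and Ifngr2 had at most 5 counts in a library. The interferon regulatory factors of the list were not past the threshold. Irf1, an early interferon gamma target, had means of 35 ± 1.6 CPM (control) and 35.9 ± 0.315 CPM (NFL, SD, n = 3 each, log2 fold change 0.03, edgeR adjusted p = 0.86). Irf8 and Irf9 had log2 fold changes of 0.09 and -0.14, Jak1 and Jak2 of -0.09 and -0.02, and Socs1 of -0.03, with edgeR adjusted p-values of 0.07 or more.

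Of 11 genes of TNF and NF-kB signalling, another inducer of Cxcl10 and Ccl5, 10 were tested, 4 rose and 0 fell, against 3.47% higher and 3.53% lower over all tested genes, with a median log2 fold change of 0.17. The rise of NF-kB genes in these samples was known when the list was chosen, so its count is not independent evidence. The genes that rose were Relb (18.2 ± 0.302 to 37.7 ± 1.24 CPM, SD, n = 3 each, log2 fold change 1.05), Nfkbia (0.98), Nfkb2 (0.72) and Tnf (0.22), with edgeR adjusted p-values of 0.0017 or less. The fold changes of Relb, which encodes a subunit that pairs with p52, and of Nfkbia, which encodes the inhibitor IkB alpha, were about those of Cxcl10 and Ccl5. The genes of the other subunits changed less, with log2 fold changes of 0 for Rela, 0.13 for Rel and 0.08 for Nfkb1, none past the threshold. The receptors of Tnf had log2 fold changes of -0.22 (Tnfrsf1a, edgeR adjusted p = 0.18) and 0.08 (Tnfrsf1b, edgeR adjusted p = 0.55).

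Many chemokine mRNAs are short-lived, and proteins such as Zfp36 and the Regnase Zc3h12a promote the decay of such messages. Of 8 such genes 7 were tested, 0 rose and 1 fell (3.47% higher and 3.53% lower over all tested genes), with a median log2 fold change of 0. The gene that fell was Zfp36l2 (312 ± 9.57 to 274 ± 4.68 CPM, SD, n = 3 each, log2 fold change -0.18, edgeR adjusted p = 4e-05). Zfp36 had a log2 fold change of -0.28 (edgeR adjusted p = 0.48) and Zc3h12a of 0.34 (edgeR adjusted p = 0.092), both named after their values were seen.

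**Figure D5:**
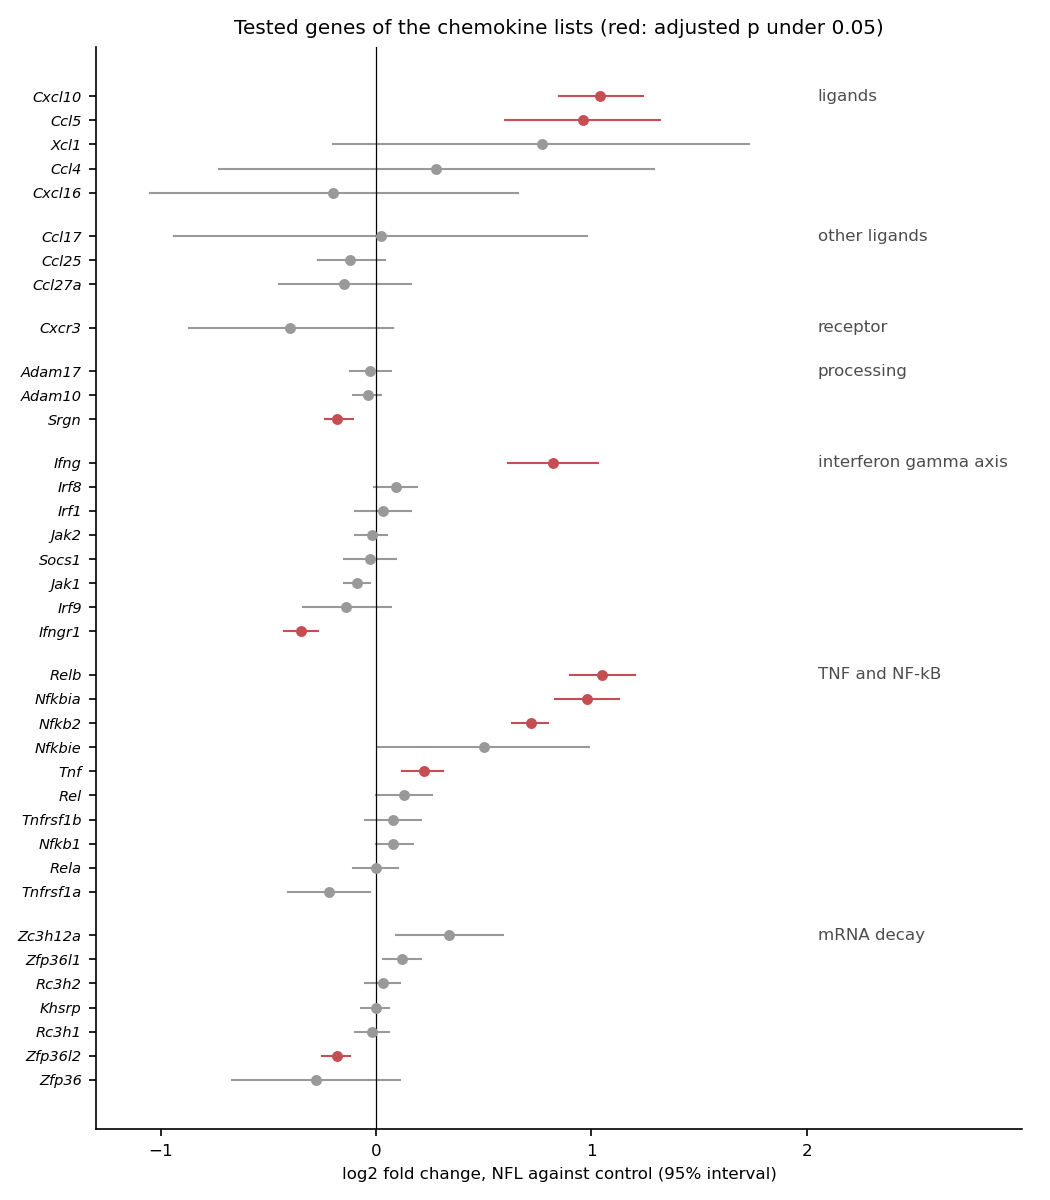
Log2 fold change of NFL against control (x axis) with its 95% interval (bars) for the tested ligands and the tested genes of the other chemokine lists (rows, grouped; 1 tested gene is not shown), red where the edgeR adjusted p was under 0.05. Cxcl10, Ccl5, Ifng, Relb, Nfkbia and Nfkb2 lie between 0.72 and 1.05, Tnf lies at 0.22, and Ifngr1, Srgn and Zfp36l2 lie below 0.

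Other cells can make these chemokines, so their markers were read in the same libraries. Of 12 macrophage markers 6 had 0 counts in all libraries, among them Itgam, Cd14 and C1qa, Lyz2 had at most 2 counts, and Csf1r had at most 3. The summed macrophage list, nearly all of it Cd68, was 24.6 to 27.5 CPM in the control and 19.2 to 23.5 CPM in the NFL libraries. Cd68, the 1 marker with enough counts to test, had a log2 fold change of -0.26 (edgeR adjusted p = 0.049), and its part in the ligand values was not tested. Natural killer cells make Ccl5 and Xcl1, and of their 8 markers 4 were tested and 2 fell, where 3.53% of all tested genes did. These were Klrb1c (log2 fold change -0.51, edgeR adjusted p = 2.4e-06) and Gzma (-0.45, edgeR adjusted p = 1.1e-13), the latter also a gene of cytotoxic T cells. The summed list was 304 to 346 CPM in the control and 247 to 256 CPM in the NFL libraries, with Ncr1, Klra4 and Klra8 at 0 throughout, and its part in the ligand values was not tested. The tested natural killer markers that were not past the threshold, Fcgr3 and Cd160, had medians of 36.8 and 0.573 CPM. Of 7 dendritic cell, 8 B-cell and 8 neutrophil and platelet markers, 1, 4 and 2 were tested and none was past the threshold. Their summed ranges were 1.87 to 2.95, 16.6 to 17.8 and 11 to 12.8 CPM in the control libraries and 1.47 to 2.86, 17.9 to 19.7 and 12 to 13.4 CPM in the NFL libraries. Flt3, Ms4a1, Ighm, S100a8 and Csf3r had 0 counts in every library. The markers tested in these lists had medians of 1.92 (Itgax), 9.48 (Pax5), 5.67 (Cr2), 1.51 (Cd79a), 1.48 (Cd79b), 7.6 (Itga2b) and 4.27 CPM (Mpo).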

How the data were processed

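RNA was measured in 6 samples of cultured mouse T cells. The authors deposited raw read counts of 55401 genes by versioned Ensembl identifier, without normalization, 1 column per sample, none pooled, and 0 columns lacked a sample. The submitters' processing notes name GRCm39, R 4.2.1 and limma 3.54.2. The aligner, counter, annotation and strand setting are not given in the sources used here. Identifier and version were identical to GENCODE M21 (GRCm38) for 54349 genes and all 10 ligands. Coordinates and exon lengths come from that annotation, and promoters from RefSeq (GRCm38.p6), matched by symbol.

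With edgeR 4.0.16 in R 4.3.3, filterByExpr (minimum count 10, minimum total 15) and TMM (factors 0.9936 to 1.007) were applied, and genes were tested by quasi-likelihood on group alone with Benjamini-Hochberg adjustment. Standard errors were derived from F. CPM used TMM-scaled library sizes. Permutation tests were exact and two-sided, and with 3 samples a group the smallest p is 0.1. Chi-square divided by its degrees of freedom was 1.88 to 3.43 for libraries of the same group, so none was a copy. Alternatives used DESeq2 1.42.0, limma 3.58.1 (voom), other scaling, filters and thresholds, thinned counts, a replicate block, and each library left out. Scripts were tested on simulated data. Figures were drawn with matplotlib 3.10.9.

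The members and lists were chosen with earlier results of these data known. All 10 ligands are named. From other lists the text names genes past the threshold, at most 5 a list, and genes of at least 10 CPM in the receptor and upstream lists. The other genes named in the lists, such as Cxcr3, Adam10, Ccl25 and Zfp36, were chosen after their values were seen. Some listed genes are not reported here by name, but list counts and medians cover them.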

Additional observations from a re-analysis of the deposited data

How the results depend on the processing

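Under the 15 alternatives that gave a count, 2 ligands were called, and Cxcl10 and Ccl5 were past the threshold in each. The log2 fold change of Cxcl10 ran from 0.92 to 1.21 (adjusted p from 1.8e-27 to 1e-07) and that of Ccl5 from 0.79 to 1.23 (adjusted p from 5.4e-06 to 0.0048), with edgeR, the DESeq2 Wald test and limma-voom included. Xcl1 ran from 0.7 to 0.88 and Cxcl16 from -0.43 to -0.05, never past the threshold, and a filter of 10 counts in every sample removed Xcl1 and Ccl4. Ccl4 changed direction without NFL replicate 1 (-0.12), with a range of -0.12 to 0.74 over libraries left out. The ratio of Cxcl10 to Ccl5 changed direction without control replicate 1 (-0.16) and without NFL replicate 1 (-0.07), within a range of -0.16 to 0.19. The level of Ccl5 per length rose to 7.79 CPM per kb with the longest transcript, whose length is shorter than that of all exons. In the other chemokine lists 8 genes were called, and 8 to 10 with a library left out, beside 7.00% over all tested genes. Tested were 3 other ligands, 1 receptor, 3 processing, 9 interferon gamma, 10 TNF and NF-kB and 7 decay genes. Of the 8, 4 came from the TNF and NF-kB list, chosen with the rise of NF-kB genes known.

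Over all genes, 986 were called. The DESeq2 Wald test called 651 (319 lower), and a threshold of 0.01 called 500 (251 higher, 249 lower). With library size alone 372 were higher and 600 lower. Leaving out 1 library gave 508 to 966 genes, 250 to 514 higher and 258 to 452 lower, with the lowest counts without NFL replicate 3 (508), NFL replicate 2 (616) and control replicate 1 (673), where fewer samples were fitted.

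No pairing by replicate number was seen, as deviations of same-numbered libraries over all tested genes correlated at 0.00534 to 0.0147. A pairing that affects few genes would not show in this measure. With the replicate number as a block 1049 genes were called, the 2 ligands were past the threshold at 1.06 (Cxcl10) and 0.99 (Ccl5), Ccl4 was at 0.22, Xcl1 at 0.77 and Cxcl16 at -0.2, and 8 genes of the other chemokine lists were called. Alternatives for the planned ligand ratios were not run, because no planned pair had 10 counts in every library. Scaling by T-cell receptor and CD3 genes, chosen after seeing the data, gave 1.04 for Cxcl10 and 0.96 for Ccl5. Depth limits Ccl1, Ccl3, Ccl9, Cxcl9 and Cxcl11, at no more than 7 counts in a library.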

Other observations

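Genes beside the ligands on the chromosome, a set chosen after its values were seen, were read within 250 kb of each locus. Over all tested genes, 3.47% were called higher and 3.53% lower. Around Cxcl9, Cxcl10 and Cxcl11 on chromosome 5, 21 other genes are annotated and 8 were tested, with log2 fold changes from -0.25 to 0.39. Nup54, which encodes a nuclear pore protein, was past the threshold with 77.6 CPM in the control and 88.5 CPM in the NFL libraries (log2 fold change 0.19, edgeR adjusted p = 0.006). Around Ccl5, Ccl9, Ccl3 and Ccl4 on chromosome 11, 30 other genes are annotated, 9 were tested and 0 were past the threshold, with log2 fold changes from -0.38 to 0.56. Around Cxcl16, 19 of 44 genes were tested and 0 were past it. At Xcl1 the single tested gene of 13, Sft2d2, had 104 CPM in the control and 92.5 CPM in the NFL libraries (log2 fold change -0.17, edgeR adjusted p = 0.0072). At Ccl1 none of 11 genes could be tested.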
